A study of Homo sapiens with 8 samples.

Results

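The kinesin motor genes were taken by name, as every listed gene called KIF followed by a number and an optional letter. That rule found 34 of the 15902 genes listed, and 23 of the 34 had at least 1 RPM (spliced reads per 1000000 reads of depth) in at least 2 of the 8 libraries, against 8461 of all genes. The other 11, KIF1A, KIF3A, KIF6, KIF9, KIF12, KIF13A, KIF17, KIF19, KIF20B, KIF25 and KIF26A, were read too little to test, and KIF6 and KIF19 had no spliced read. Nearest inside the limit was KIF14, whose second-highest library held 1.22 RPM, and nearest outside it was KIF3A with 0.938 RPM. Of the members that passed, KIF24 did so only through drug libraries, KIF5A, KIF14 and KIF15 only through the 2 vehicle inputs, and KIF27 only through vehicle libraries of input and J2 RNA. A gene that passed through the group where it is high had to differ. The spliced levels and ratios of these 5 are therefore described without a test in some comparisons. These set that group, its treatment or its kind of RNA against another. The main counts by spliced reads and by their ratio to intronic reads are given with and without such genes.

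The cells were SUM159, a human cell line from a triple-negative breast cancer, with a mesenchymal character. For 12 h they received H3B-8800, a spliceosome inhibitor whose target is the SF3b complex, or DMSO, its solvent (the vehicle). Part of the RNA was sequenced as it was (input), and part after it was pulled down with J2, which recognises RNA duplexes. Each of the 4 groups, drug and vehicle in input and in J2 RNA, had 2 biological duplicates of the same unmodified line, in stranded libraries of polyadenylated RNA. No immunoprecipitation with a control antibody was analysed here, so reads recovered with J2 are not shown to be double-stranded.

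Library depth ran from 47000000 to 57000000 reads, and the share of intronic reads over all introns was 3.63% to 3.98% with vehicle and 10.3% to 13.0% with drug. Of 8 mesenchymal markers 7 reached 1 RPM, with a sum of 838 to 1077 RPM per library. Of 10 luminal or epithelial markers 4 did, with a sum of 187 to 291 RPM, and ESR1 and PGR were at 0. No immune marker did, with sums of 0 to 0.412 RPM and CD3E and LYZ at 0.

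Kinesins are motors that hydrolyse ATP to walk along microtubules or to take apart microtubule ends. Mitotic kinesins build the spindle, align and segregate chromosomes and organise the midzone where the daughter cells part, while transport kinesins carry vesicles, mitochondria and ciliary cargo. Their genes hold many introns, each of which has to be removed by the spliceosome, whose SF3b complex recognises the branch point upstream of the intron's 3' end.

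For each intron the reads inside it (intronic reads) and the reads joined across it (spliced reads) were used, and a read that crosses several introns counts at each. The sequences at the 3' ends of introns are shown first because the results concern the removal of introns. GENCODE 29 transcripts of other isoforms or of overlapping genes covered the 3' ends of 12 tested kinesin introns, and each is printed 5' to 3' with its last 30 bases and the terminal AG in capitals. Of these introns, 7 had a higher ratio of intronic to spliced reads with drug in the input.
KIF7 intron 16: agggctgagcctggctgggtcttgggacAG
KIF7 intron 15: ctgttcctccacgcgtgcccgtctctgcAG
KIF7 intron 2: gtggcaggaggccctgcggtgtctccccAG
KIF4A intron 1: atcagcgagccttctttttccccctcgcAG
KIF2C intron 13: ccttagcctcattccccctgcctggcacAG
KIF18B intron 4: cagccccgttcctgggcttctcctctgtAG
KIF21B intron 8: ctgactgctcccctttgcccctgctcccAG
The other 5 did not pass the test.
KIF20A intron 1: ctccctgcccactttttggtctctttttAG
KIF2C intron 17: gtgggatctgagacctccttgtttcctcAG
KIF23 intron 21: atctttttcctcttgtcattttcctctcAG
KIF1C intron 18: tctttccccttcctctgcccctccattcAG
KIF2A intron 11: tcaattttctgtatatgaaatttttgacAG
On GRCh38 the bases of KIF7 intron 16 are chr15:89629574-89629603 on the minus strand, and those of KIF4A intron 1 are chrX:70290408-70290437 on the plus strand. The 20 bases before the AG held 10 to 18 pyrimidines in the 7 introns that rose and 11 to 18 in the other 5, so the ranges overlapped. Transcripts covered the last bases of 43 listed kinesin introns, and all 43 ended in AG. The bases of KIF7 introns 15 and 16 were read from TICRR, those of KIF4A intron 1 from PDZD11 and those of KIF1C intron 18 and KIF2C intron 13 from other genes on the opposite strand. Those of KIF18B intron 4 were read from MIR6783 and the rest from other isoforms of the same gene, so these 12 are no sample of all kinesin introns.

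With the drug, more of the kinesin reads were intronic, in the input and in J2 RNA alike. KIF1C, a Golgi and vesicle motor, held more spliced reads than all other kinesins together in every group, so the sums below leave it out. Over the other 22 members the intronic share of reads was 5.31% and 5.95% in the vehicle inputs and 18.3% and 18.3% in the drug inputs. In J2 RNA it was 6.59% and 6.53% with vehicle and 20.7% and 17.7% with drug. Every drug library lay above every vehicle library. Over all genes that passed, the share was 3.53% ± 0.02 (SD, n = 2) in input with vehicle and 9.85% ± 0.07 with drug, and in J2 RNA 3.48% ± 0.09 and 12.5% ± 0.28. Leaving KIF1C out put the members above all genes in every group. Keeping it put them below. All 23 members then had mean shares of 2.49% (vehicle inputs), 7.20% (drug inputs), 2.02% (J2, vehicle) and 5.65% (J2, drug). A few genes also weighed heavily. Of 1409 and 1526 intronic reads behind the drug-input sums, KIF18B held 424 and 453, KIF7 287 and 288, and KIF4A 191 and 220.

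**Figure D1:**
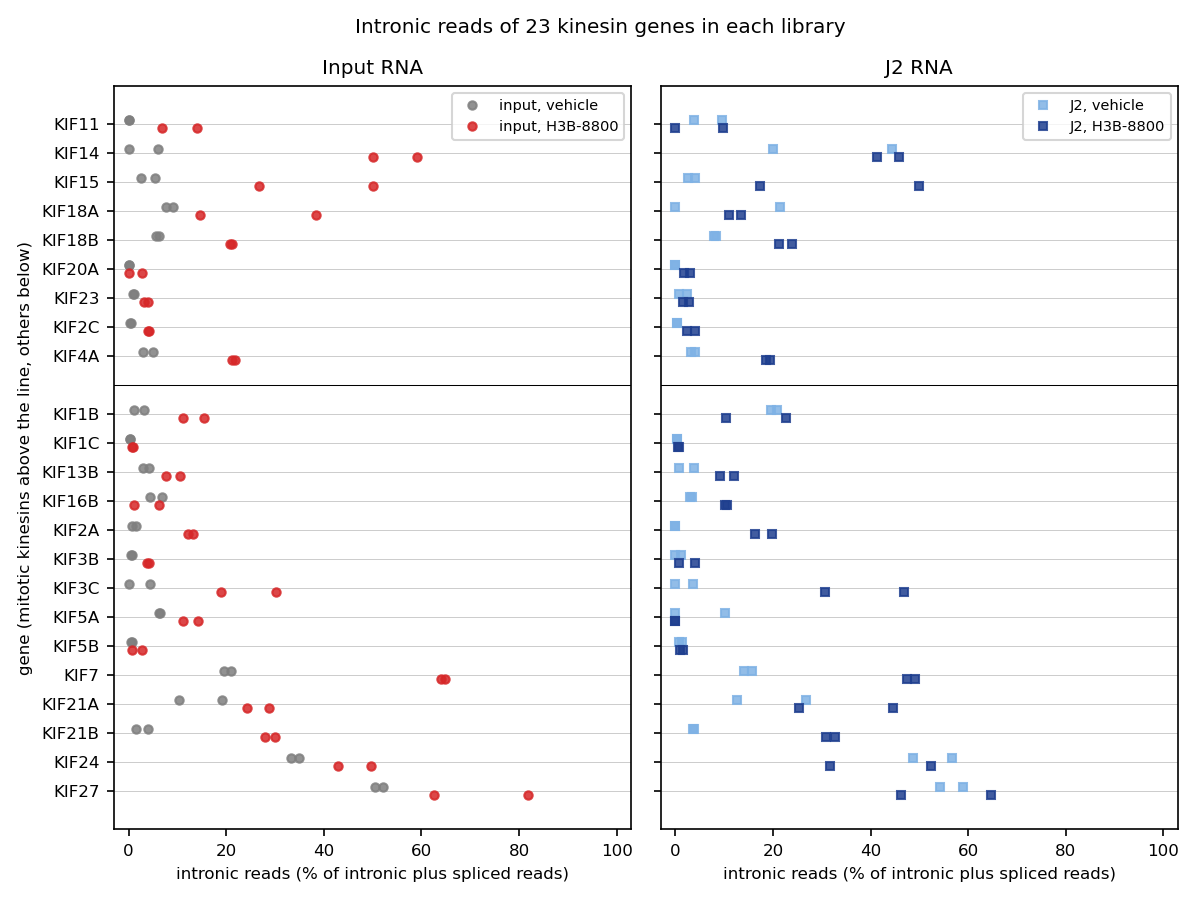
Intronic share of reads (percent of intronic plus spliced reads) of each of the 23 kinesin genes by group. Points are libraries, 2 per group; KIF7 and KIF21B lie far higher with drug in both kinds of RNA, whereas KIF27 is at 46.2% or more in every library.

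By the ratio of intronic to spliced reads, 14 of the 23 members rose with drug in the input and none fell (limma, adjusted p under 0.05). Over all genes tested 57.6% rose and 2.04% fell, so the members' share was near the background. The median change of the log2 ratio was 2.04 in the members and 1.68 over all genes. Without genes that passed the filter through one treatment only, 12 of 18 members rose, against 58.9% of all genes. No member fell at an unadjusted p under 0.05 either. When both kinds of reads were first scaled by the median of ratios, which moves the median of all genes to -0.06, 6 members rose and 1 fell. By that scaling KIF11 (2.47, adjusted p = 0.104), KIF3C (2.25, adjusted p = 0.131) and KIF15 (2.01) were among those no longer called (limma).

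Among the mitotic kinesins, 7 of 9 tested rose in this ratio, a count that holds KIF14 and KIF15. KIF14, a motor of the midbody that works with citron kinase in cytokinesis, had 0% and 6.06% intronic reads in the vehicle inputs and 59.1% and 50% in the drug inputs. The log2 ratio was higher with drug by 5.17, given without its test. Its spliced reads, the lower part of the ratio, were few, at 71 and 62 with vehicle and 18 and 34 with drug, and it passed the filter through the former. One intron, the fifth, held 93.3% of its intronic reads with drug.

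KIF11, the tetrameric motor that pushes spindle poles apart, had no intronic read in either vehicle input and 4 and 9 in the drug inputs. Against a floor of 3 reads over the vehicle group, this is at least 4.52-fold higher. Its log2 ratio rose by 4.21 ± 1.10 (SE, limma, adjusted p = 0.0128), and the groups did not overlap. Intron 6 held 12 of the 13 reads. The call was lost without either vehicle input or without the second drug input (limma, adjusted p up to 0.0727).

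KIF15, which backs up KIF11 at the spindle, had 2.52% and 5.30% intronic reads with vehicle and 26.7% and 50% with drug. Like KIF14 it passed the filter through spliced reads of the vehicle inputs, so its log2 change of 3.75 is given without its test. Its call was lost without the first vehicle or the second drug input. KIF2C (MCAK), which takes apart microtubule ends at centromeres, went from 0.252% and 0.509% to 4.09% and 4.06% (up 3.29 ± 0.36, limma, adjusted p = 1.73e-04). KIF18B, a plus-end motor of mitosis, went from 5.67% and 6.30% to 21.2% and 20.8% (up 2.04 ± 0.23, limma, adjusted p = 1.82e-04).

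KIF20A, the midzone motor also called MKLP2, had no intronic read in the vehicle inputs and 9 and 0 in the drug inputs. The groups touched at 0 and the log2 ratio differed by 0.97 ± 0.97 (limma, adjusted p = 0.418), with a value of -0.77 without the first drug input and -0.76 under median-of-ratios scaling. KIF18A, which dampens chromosome movements on the plate, also missed the threshold, at 7.55% and 9.18% with vehicle and 38.5% and 14.5% with drug (1.78 ± 1.02, limma, adjusted p = 0.171).

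Of the 14 other members tested, 7 rose. KIF21B, a plus-end motor that limits microtubule growth, had 1.54% and 3.95% intronic reads with vehicle and 29.9% and 27.9% with drug in the input (log2 ratio up 3.94 ± 0.42, limma, adjusted p = 1.51e-04). KIF3C, a partner of KIF3A in kinesin-2, had 0% and 4.41% with vehicle and 18.8% and 30.3% with drug (up 3.98 ± 1.06, limma, adjusted p = 0.0139), and was not called without the first vehicle or the second drug input (adjusted p up to 0.0800). KIF2A, a microtubule depolymerase of spindle poles and neurons, went from 1.46% and 0.599% to 13.2% and 12.1% (up 3.56 ± 0.46, limma, adjusted p = 3.92e-04). All 3 had every drug input above every vehicle input.

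KIF7, the ciliary regulator of Hedgehog signalling, started high at 19.6% and 21% and reached 64.1% and 64.9% with drug (log2 ratio up 2.82 ± 0.26, limma, adjusted p = 6.55e-05). Its intron 2, which overlaps an exon of another KIF7 isoform, held 92.6% of its intronic reads in the vehicle inputs. KIF5B, the ubiquitous heavy chain of conventional kinesin, had 0.633% and 0.466% with vehicle and 2.68% and 0.634% with drug, so the second drug input lay beside the vehicle inputs. Its ratio differed by 1.34 ± 0.61 (limma, adjusted p = 0.0969), and by -0.40 under median-of-ratios scaling.

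In J2 RNA, 12 members rose in this ratio with drug and none fell, against 56.3% and 4.72% of all genes (limma). The median was 1.58 in the members and 1.64 over all genes, and no member fell at an unadjusted p under 0.05. Among the 12 was KIF5A (2.40, given without its test), which had 0 and 6 intronic reads with vehicle and 0 and 0 with drug. Its spliced reads were 28 and 53, then 1 and 3. Its ratio thus moved through fewer spliced reads and the added 1, not through more intronic reads. Without genes that passed through one treatment only, 10 of 18 members rose, against 57.9% of all genes. Under median-of-ratios scaling 4 members rose and 6 fell, and the log2 ratios of KIF18B and KIF1C turned to -0.12 and -0.75. KIF3C had 3.64% and 0% intronic reads with vehicle and 46.9% and 30.6% with drug (up 4.90 ± 1.06, adjusted p = 0.00515). KIF2A had no intronic read in the J2 vehicle libraries and 31 and 83 in the drug libraries, at least 40.6-fold higher against the floor. KIF21B went from 3.66% and 3.79% to 32.6% and 31.0% (up 3.52 ± 0.42, limma, adjusted p = 2.44e-04). In these 3 genes the groups did not overlap.

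Counted as intronic reads alone, 13 members rose and 1 fell in the input, and likewise 13 and 1 in J2 RNA (edgeR's quasi-likelihood test with Benjamini-Hochberg adjustment). Over all genes tested 50% rose and 3.89% fell in the input, as did 57.7% and 3.44% in J2 RNA. The median log2 change was 1.95 in the members and 1.26 over all genes in the input, but 1.83 and 1.74 in J2 RNA. With genes at 0 set to their bounds the members' medians were 1.93 and 1.77. Under TMM 8 rose and 4 fell in the input, with 6 and 2 in J2 RNA, and under the median of ratios 7 and 4, and 6 and 2.

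KIF18B held 41 and 49 intronic reads in the vehicle inputs and 424 and 453 in the drug inputs, a rise of 3.34 ± 0.20 on the log2 scale (SE, edgeR, adjusted p = 1.35e-56). KIF1B, a motor for mitochondria and synaptic vesicle precursors, held 2 and 6 with vehicle and 28 and 46 with drug (up 3.23 ± 0.62, edgeR, adjusted p = 6.22e-07). KIF14 held 0 and 4, then 26 and 34 (up 3.89 ± 0.76, edgeR, adjusted p = 1.02e-06). Drug and vehicle inputs did not overlap in any of these 3 genes.

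KIF2C held 3 and 7 intronic reads with vehicle and 40 and 45 with drug (up 3.12 ± 0.58, edgeR, adjusted p = 2.90e-07). The chromokinesin KIF4A, which works with PRC1 at the midzone and whose copy KIF4B has no listed intron, held 31 and 21, then 191 and 220 (up 3.03 ± 0.27, edgeR, adjusted p = 4.04e-28). This rise lay in 1 intron: over introns free of other genes' exons KIF4A changed by -0.66 (edgeR, adjusted p = 0.528).

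KIF27, a relative of KIF7, fell instead. Its intronic reads were 151 and 150 in the vehicle inputs and 20 and 36 in the drug inputs, a log2 change of -2.36. In J2 RNA they were 154 and 126, then 18 and 22, a change of -2.71. KIF27 is the 1 member counted as lower above. It passed the filter only through vehicle libraries, so both changes are given without their tests. Its first intron, chr9:83915678-83921371, held 299 of the 301 intronic and 277 of the 286 spliced reads of the vehicle inputs, so the gene's values are those of that intron.

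At single introns, 151 of the 476 introns of the members that passed were read deeply enough to test, in 18 genes. Of these, 46 rose in the ratio with drug in the input and 2 fell, against 37.9% and 2.48% of 48503 introns over all genes (limma). The median change was 1.07 in kinesin introns and 1.24 in all. The rises lay in 13 genes: 11 of the 17 tested introns of KIF7, 10 of 19 of KIF21B, 4 of 13 of KIF18B and 4 of 22 of KIF1C rose, and none of 8 of KIF20A. Of the 46, 3 had no intronic read in either group, so that only a loss of spliced reads moved the ratio. Spliced RPM was not higher with drug in 38 of the 46, so fewer spliced reads had a part in most of these rises. In 25 of the 46 there was no intronic read with vehicle, and 6 overlapped an exon of another gene. Introns that rose had a median length of 675 bases (76 to 8319) and those not called 769 bases (77 to 72665).

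KIF7 intron 16 (chr15:89629573-89630287, minus strand) had no intronic read in any vehicle library, and 45 and 53 in the drug inputs. Its spliced reads were 21 and 33 with vehicle and 3 and 6 with drug, and the log2 ratio rose by 8.01 ± 0.42 (limma, adjusted p = 1.43e-04). The J2 drug libraries held 117 and 110 intronic reads and the J2 vehicle libraries none. The intron overlaps an exon of TICRR on the opposite strand, and TICRR itself held 29 and 35 spliced reads in the vehicle inputs and 33 and 35 in the drug inputs. Intronic reads of TICRR were 2 and 8, then 23 and 11 in the input, and 12 and 4, then 11 and 8 in J2 RNA. Reads of TICRR cannot be told apart from retained KIF7 intron there.

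KIF7 intron 4 (chr15:89648774-89648974) went from 0 and 0 to 10 and 9 intronic reads in the input (log2 ratio up 4.86 ± 0.42, limma, adjusted p = 3.29e-04). KIF7 intron 2 (chr15:89649941-89652603) was read mostly as intron even with vehicle, at 85 and 102 intronic against 20 and 15 spliced reads. With drug it held 170 and 157 intronic against 1 and 0 spliced reads (up 4.50 ± 0.56, limma, adjusted p = 0.00119). A single intron thus held most of the intronic reads of KIF7 before treatment. It overlaps an exon of another KIF7 isoform, so reads of that exon cannot be told apart from retained intron there.

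Neighbouring introns of KIF18B rose together. Intron 14 (chr17:44926499-44926989) went from 0 and 2 to 176 and 181 intronic reads while its spliced reads went from 51 and 52 to 128 and 126 (log2 ratio up 5.41 ± 0.75, limma, adjusted p = 0.00180). Intron 13 (chr17:44927078-44928026) went from 2 and 0 to 151 and 164 (up 5.25 ± 0.56, limma, adjusted p = 6.86e-04). Intron 10 of the same gene (chr17:44931729-44932056) had no intronic read in any library, and its ratio changed by -1.33 ± 0.39 (limma, adjusted p = 0.0328) as spliced reads went from 57 and 70 to 156 and 164. That call was lost without any 1 of the 4 input libraries (adjusted p up to 0.133).

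KIF1C intron 5 (chr17:5001401-5002059) had 0 and 0 intronic reads with vehicle and 31 and 28 with drug in the input (log2 ratio up 4.92 ± 0.51, limma, adjusted p = 6.11e-04). In J2 RNA it had 0 and 2, then 7 and 4 (1.12, limma, adjusted p = 0.119). Introns 14, 15, 17, 18 and 19 of KIF1C were the most deeply read of those not called, with 685 to 1063 spliced reads per vehicle input. Their log2 ratios in the input lay between -0.26 and 1.87, and 14, 15 and 17 held at most 2 intronic reads in any library.

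KIF2A intron 6 (chr5:62353375-62355159) went from 0 and 0 to 10 and 11 intronic reads in the input (log2 ratio up 4.86 ± 0.84, limma, adjusted p = 0.00439), and from 0 and 0 to 20 and 71 in J2 RNA. KIF2C intron 8 (chr1:44754845-44755929) went from 0 and 2 to 12 and 18 (up 4.81 ± 0.70, limma, adjusted p = 0.00220), and held at most 2 in any J2 library. KIF4A intron 1 (chrX:70290150-70290438) went from 17 and 17 to 190 and 210, as its spliced reads went from 54 and 65 to 27 and 32. It overlaps an exon of PDZD11, so reads of PDZD11 cannot be told apart from retained KIF4A intron there. PDZD11 held 1723 and 1713 spliced reads in the vehicle inputs and 1862 and 2127 in the drug inputs, and in J2 RNA 1860 and 1945, then 726 and 840.

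KIF5B intron 25 (chr10:32011516-32015509) was one of the 2 that fell. It held 6 and 6 intronic reads with vehicle and none with drug in the input (log2 ratio -2.46 ± 0.39, limma, adjusted p = 0.00306). In J2 RNA, 30 kinesin introns rose and 13 fell, against 36.8% and 5.91% of all introns (limma), with a median of 0.41 in kinesin introns and 1.10 in all. Of the 46 introns that rose in the input, 24 rose in J2 RNA too, which is 52.2% of the 46 and 80% of the 30. The same overlap was not counted over introns of all genes, so these shares have no background. Of the 13 that fell in J2 RNA, 9 had no intronic read in either group, and spliced RPM was higher with drug in all 13.

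**Figure D2:**
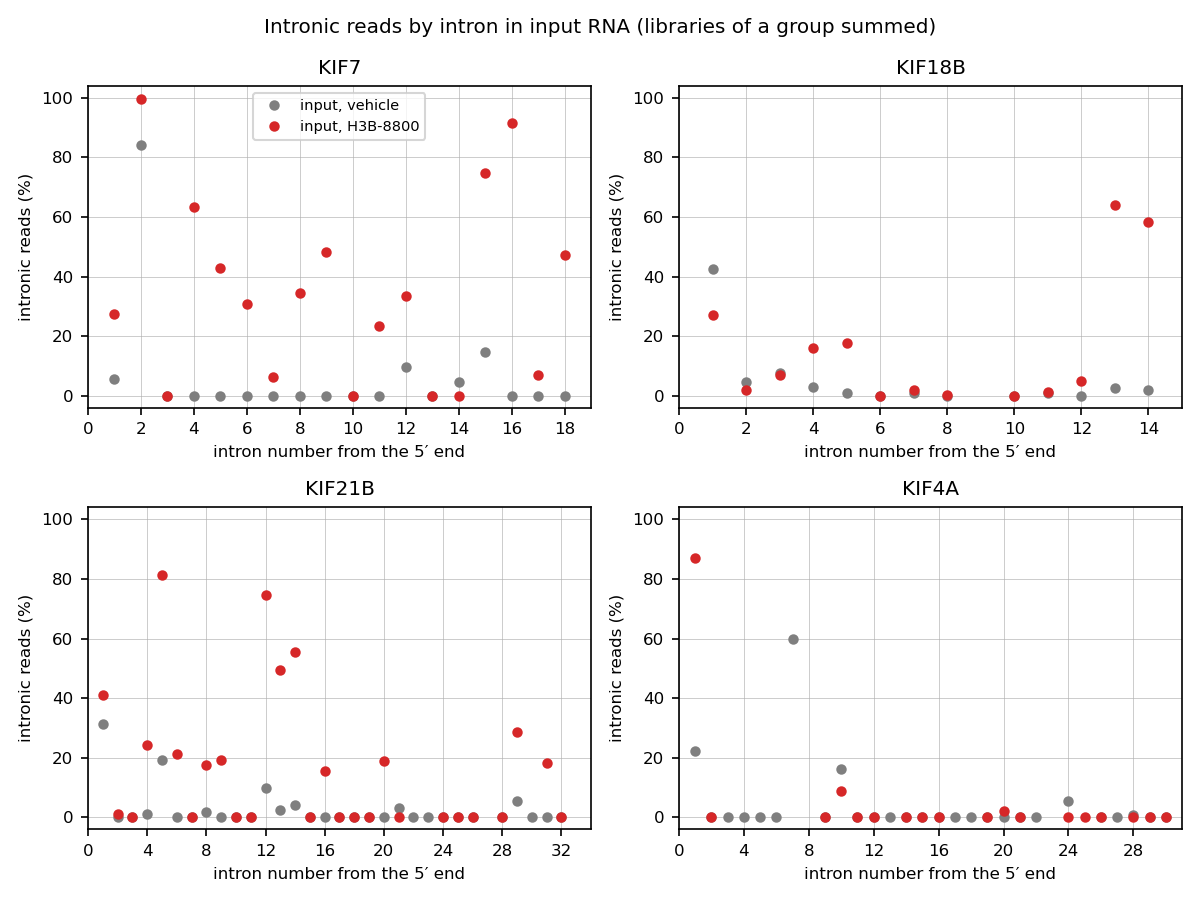
Intronic reads as a percent of intronic plus spliced reads at introns of KIF7, KIF18B, KIF21B and KIF4A from 5' to 3'. Vehicle and drug inputs are shown, with the libraries of a group summed. An intron is drawn for a group only where it had at least 10 reads in that group. KIF7 introns 4 and 16 stand at 0% with vehicle and at 63.3% and 91.6% with drug, KIF18B introns 13 and 14 at 63.9% and 58.4% with drug, and introns near 0% in both groups lie between.

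Spliced reads of kinesin genes mostly fell with drug in the input: 15 of 23 members fell and 5 rose, against 48.7% and 21.8% of all genes (edgeR). The median log2 change was -0.87 in the members and -0.38 over all genes. Without genes that passed the filter through one treatment only, 11 of 18 members fell and 4 rose, against 46.9% and 22.4% of all genes, with medians of -0.61 and -0.32. With TMM 12 fell and 6 rose, and with the median of ratios, which moves the median of all genes to 0.03, 9 fell and 6 rose. DESeq2 found 14 lower and 3 higher. In bulk RNA a lower level per cell and fewer cells that express a gene cannot be told apart.

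Mitotic kinesins went both ways, 3 up and 5 down of 9. KIF18B had 14.2 and 14.3 RPM in the vehicle inputs and 33.5 and 35.8 RPM in the drug inputs, a rise of 1.28 ± 0.07 on the log2 scale (edgeR, adjusted p = 3.00e-07). KIF20A had 4.19 and 4.02 RPM, then 6.62 and 7.21 RPM (up 0.75 ± 0.14, edgeR, adjusted p = 8.30e-04). KIF4A had 12.3 and 13.6 RPM, then 15.1 and 16.5 RPM (up 0.28 ± 0.10, edgeR, adjusted p = 0.0319), a call lost without the first vehicle or second drug input (adjusted p up to 0.196). In these 3 genes both drug inputs lay above both vehicle inputs.

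The other mitotic members that changed fell. KIF15, which passed the filter through the vehicle inputs, had 2.42 and 2.45 RPM there and 0.468 and 0.375 RPM with drug, a log2 change of -2.52 given without its test. KIF11 had 2.83 and 2.98 RPM, then 1.15 and 1.15 RPM (-1.34 ± 0.31, edgeR, adjusted p = 0.00354). KIF18A differed by -1.22, as did KIF14 by -1.30, also without its test. All 4 had drug inputs below vehicle inputs in every library. KIF2C had 24.7 and 26.8 RPM, then 19.98 and 22.2 RPM (-0.29 ± 0.08, edgeR, adjusted p = 0.00832), but by the median of ratios its change was 0.12, and it was not called without the second vehicle or first drug input (adjusted p up to 0.0851). KIF23 (MKLP1 of the centralspindlin complex) had 11.9 and 11.1 RPM, then 13.2 and 10.5 RPM, and its groups overlapped.

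Among the other members 10 of 14 fell, a count that holds KIF27 and KIF5A. Both passed the filter through vehicle libraries, so their values are a description. KIF27 had 2.90 and 2.88 RPM with vehicle and 0.255 and 0.167 RPM with drug, a log2 change of -3.76. KIF5A, the neuronal heavy chain, had 2.73 and 2.63 RPM, then 0.511 and 0.375 RPM, a change of -2.59. KIF2A had 5.62 and 6.51 RPM, then 2.51 and 2.12 RPM (-1.39 ± 0.30, edgeR, adjusted p = 0.00226). In these 3 the drug inputs lay below every vehicle input.

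KIF5B had 22.9 and 25.1 RPM with vehicle and 9.26 and 9.79 RPM with drug (-1.33 ± 0.21, edgeR, adjusted p = 3.16e-04). KIF1C, the most abundant, had 241 and 252 RPM, then 285 and 298 RPM (up 0.24 ± 0.05, edgeR, adjusted p = 0.00168). KIF24, a centriole motor that holds back cilia, had 0.750 and 0.804 RPM, then 1.38 and 1.60 RPM, a difference of 0.94 given without its test, as it passed the filter through drug libraries. Spliced RPM divided by the number of introns put KIF1C first in the vehicle inputs at 11.2, then KIF2C at 1.61, KIF18B at 1.10 and KIF5B at 0.960, with KIF14 last at 0.0518.

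**Figure D3:**
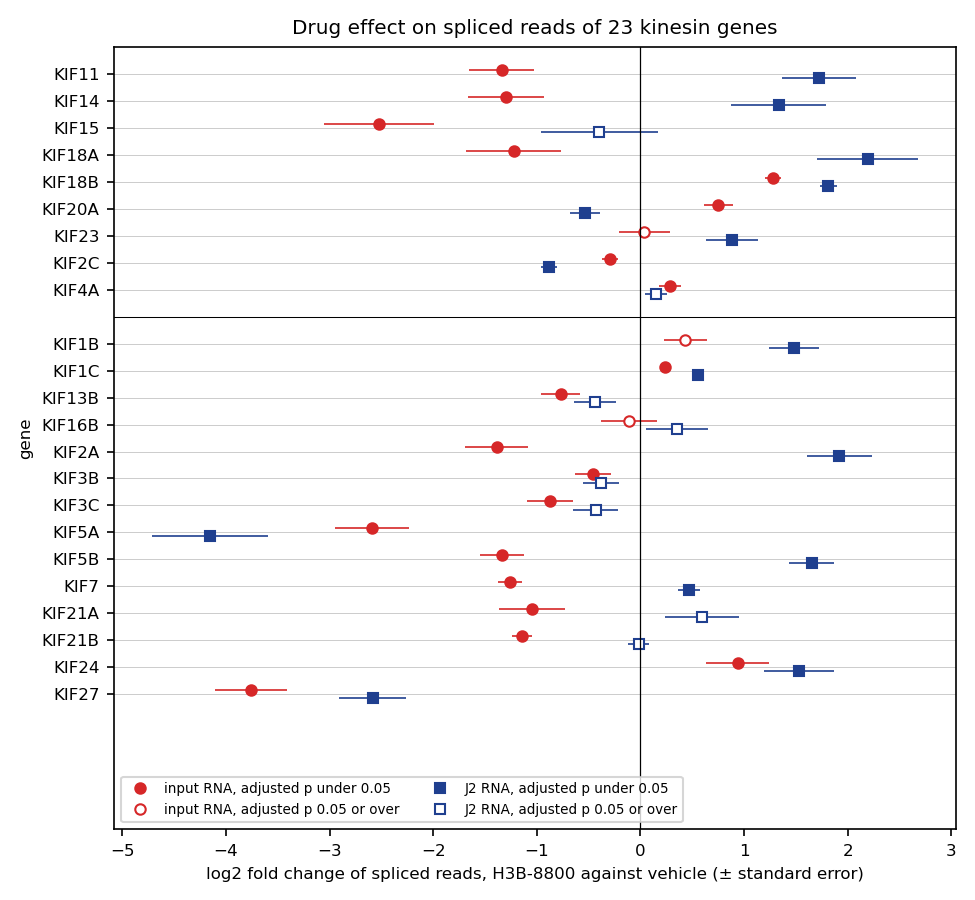
Log2 change of spliced reads with drug in each kinesin gene, in the input and in J2 RNA, with standard errors from edgeR. KIF18B is above 0 in both and KIF27 and KIF5A below 0 in both, while KIF18A, KIF2A, KIF11, KIF5B and KIF14 are below 0 in the input and above 0 in J2 RNA.

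The drug effect in J2 RNA had another direction in many members: 11 rose and 4 fell, against 34.6% and 39.5% of all genes (edgeR). The members' median was 0.47 and that of all genes -0.03. Without genes that passed through one treatment only, 9 of 18 rose and 2 fell, against 35.9% and 38.2% of all genes. KIF18A had 0.415 and 0.439 RPM in the J2 vehicle libraries and 1.14 and 2.77 RPM in the J2 drug libraries (up 2.19 ± 0.48, edgeR, adjusted p = 0.00235). KIF2A had 1.45 and 1.07 RPM, then 3.20 and 6.34 RPM (up 1.92 ± 0.32, edgeR, adjusted p = 3.67e-04). KIF18B had 5.51 and 5.39 RPM, then 18.7 and 19.7 RPM (up 1.82 ± 0.08, edgeR, adjusted p = 6.00e-08). No J2 drug library overlapped a vehicle library in these 3, though the second J2 drug library held more KIF18A and KIF2A than the first. Summed over the 22 members without KIF1C, the J2 drug libraries held 103 and 128 spliced RPM and the J2 vehicle libraries 92.2 and 90.2 RPM.

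The 4 that fell in J2 RNA were KIF5A, KIF27, KIF2C and KIF20A. KIF5A had 0.528 and 0.930 RPM with vehicle and 0.0200 and 0.0566 RPM with drug, or 1 and 3 reads. Its log2 change of -4.15 is given without its test, as it passed the filter only through vehicle libraries. KIF27 had 2.02 and 1.86 RPM, then 0.420 and 0.226 RPM, a change of -2.58 given without its test. KIF2C had 27.2 and 28 RPM, then 15.4 and 14.6 RPM (-0.88 ± 0.08, edgeR, adjusted p = 6.36e-06), again with no overlap.

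The difference of the 2 drug effects was tested as an interaction, and 12 members were higher in J2 RNA and 2 lower, against 35.8% and 13.8% of all genes (edgeR). Without genes that passed through one treatment or one kind of RNA only, 10 of 18 were higher and 2 lower, against 37.7% and 15.2%. With the median of ratios 8 were higher and 3 lower. KIF18A differed by 3.42 ± 0.67 (edgeR, adjusted p = 0.00248), KIF2A by 3.31 ± 0.44 (adjusted p = 3.44e-04) and KIF11 by 3.06 ± 0.47 (adjusted p = 7.43e-04). The J2 drug libraries held 0.920 and 1.74 RPM of KIF11. KIF20A went the other way, by -1.29 ± 0.20 (edgeR, adjusted p = 7.52e-04): it had risen in the input, and in J2 RNA it had 4.02 and 4.12 RPM with vehicle and 2.66 and 2.96 RPM with drug. KIF5B had 4.70 and 4.70 RPM in the J2 vehicle libraries and 10.7 and 18.9 RPM with drug, so that its fall in the input and its rise in J2 RNA differed by 2.99 ± 0.31 (edgeR, adjusted p = 1.29e-04). By the ratio of intronic to spliced reads no member passed for the interaction in either direction (limma, against 1.56% and 1.03% of all genes), with 0 higher and 3 lower at an unadjusted p under 0.05. The same fit after median-of-ratios scaling of both reads also called none.

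Recovery with J2 was compared next, as J2 against input at the same treatment; these comparisons share libraries with the drug effects above. With vehicle, 17 of 23 members were lower in J2 RNA and none higher, against 44.3% and 16.4% of all genes (edgeR). No member was higher at an unadjusted p under 0.05 or in DESeq2, but 2 were with TMM and 3 with the median of ratios, beside 14 and 13 lower. The members' median was -1.21 and that of all genes -0.28. The 17 hold KIF5A, KIF14 and KIF15, which passed the filter only through the vehicle inputs. Without genes that passed through one kind of RNA only, 14 of 20 members were lower, against 43% of all genes, with medians of -1.18 and -0.25. KIF14 had 1.48 and 1.22 RPM in the vehicle inputs and 0.151 and 0.175 RPM in the J2 vehicle libraries, a difference of -3.02 given without its test. KIF11 (0.472 and 0.333 RPM in J2) differed by -2.85 ± 0.35 (edgeR, adjusted p = 1.08e-04). KIF21A, a cortical motor that limits microtubule growth, had 5.60 and 5.73 RPM in input and 1.04 and 1.11 RPM in J2 (-2.40 ± 0.34, edgeR, adjusted p = 2.75e-04). J2 and input did not overlap in these 3.

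With drug, 5 members were higher in J2 RNA than in the input and 9 lower, against 28.2% and 27.4% of all genes (edgeR), with a median of -0.39 in the members and 0.02 over all genes. Leaving out genes that passed through one kind of RNA only, 5 of 20 were higher and 8 lower, against 29.2% and 26.8%. KIF7 had 3.43 and 3.25 RPM in the drug inputs and 9.36 and 8.79 RPM in the J2 drug libraries (1.44 ± 0.11, edgeR, adjusted p = 5.99e-06). KIF18A (0.511 and 1.10 RPM in the input) was higher by 1.28 ± 0.46 (edgeR, adjusted p = 0.0378), a call lost without 6 of the 8 libraries in turn (adjusted p up to 0.310). KIF2A was higher by 1.04 ± 0.30 (edgeR, adjusted p = 0.0148), lost without either drug input or the second J2 drug library (adjusted p up to 0.105). Lower were KIF20A by -1.30 ± 0.14 (adjusted p = 4.88e-05) and KIF1B by -1.17 ± 0.21 (adjusted p = 0.00129), both by edgeR. KIF5A, which passed the filter only through input libraries, differed by -3.43, given without its test.

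By the ratio of intronic to spliced reads, J2 RNA with vehicle was above input in 2 members and below it in none, against 4.14% and 8.88% of all genes (limma). KIF14 had 20% and 44.4% intronic reads in these J2 libraries, from 2 and 8 reads, a difference of 3.98 given without its test. It passed the filter through input spliced reads, which are the lower part of this ratio. KIF1B had 19.7% and 20.8% (3.45 ± 0.60, limma, adjusted p = 0.0148), lost without the first vehicle input (adjusted p up to 0.0665). With drug no member passed, against 2.29% and 4.23% of all genes (limma), with 1 higher and 1 lower at an unadjusted p under 0.05 and none after median-of-ratios scaling.

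Within single kinesin genes the spliced reads did not move as one. Windows of introns were chosen after their values were seen, so they carry no test. In KIF23 the junctions of introns 3 to 16 held 38 and 46 spliced reads in the J2 vehicle libraries and 166 and 530 in the J2 drug libraries. The 5 junctions at its ends held 355 and 377, then 302 and 422. In the input the inner junctions held 230 and 210, then 141 and 88, and the ends 342 and 356, then 479 and 414. The inner part was thus lower with drug in the input and higher in J2 RNA, while the ends overlapped in J2 RNA.

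KIF5B showed a like split. Introns 2 to 23 held 922 and 1075 spliced reads in the vehicle inputs, 292 and 288 in the drug inputs, 138 and 150 in J2 with vehicle and 432 and 859 in J2 with drug. Introns 1, 24 and 25 held 176 and 207, 143 and 182, 111 and 118, and 101 and 141. In KIF2C, introns 3 to 10 held 72 and 96 reads, then 26 and 30 in the input, where introns 11 to 20 held 1115 and 1271, then 913 and 1034. Most KIF2C spliced reads therefore came from its 3' part.

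**Figure D4:**
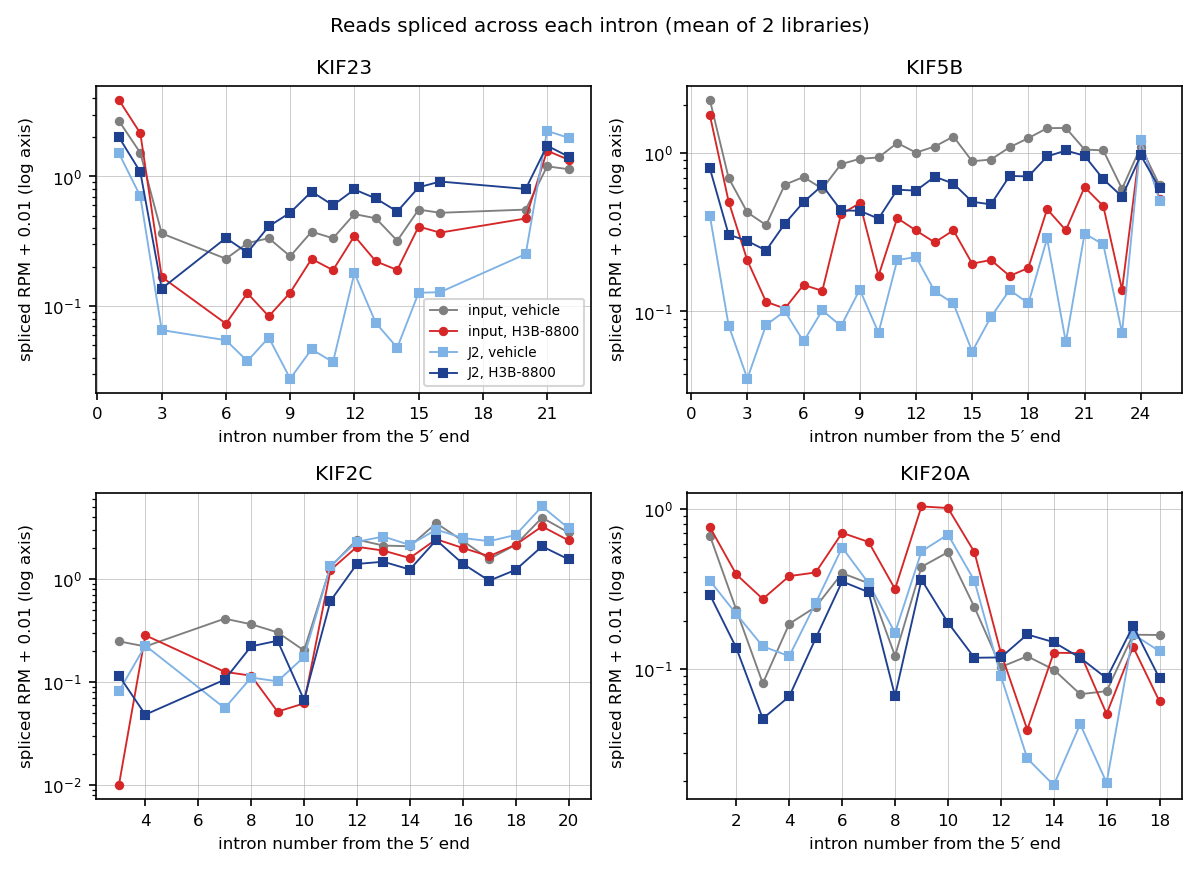
Spliced RPM at each junction of selected kinesin genes from 5' to 3', by group, as the mean of 2 libraries plus 0.01 on a log axis. In KIF23 and KIF5B the J2 vehicle group is the lowest over most inner junctions and comes close to the other groups at the 3' end, and in KIF2C all groups rise from intron 11 on.

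These windows differed in base composition, so junctions of both kinds are printed here, with 15 bases of the upstream exon in lower case and 15 of the downstream exon in capitals.
KIF23 intron 10: gattacgtgaagctgGTAATATTAATCAGT
KIF5B intron 20: actacatgaacttacGGTTATGCAAGATAG
KIF23 intron 21: gatgtagaaacaaggTGTTCTGTGGCTGTG
KIF5B intron 24: attctgcacagattgCTAAACCTATTCGTC
The exon bases around KIF23 intron 10, up to 200 in all, were 39.5% G or C, and its spliced reads per group were 36 in input with vehicle, 21 in input with drug, 4 in J2 with vehicle and 79 in J2 with drug. Around KIF5B intron 20 they were 41.0% G or C, with 142, 30, 6 and 107 reads. Around KIF23 intron 21 they were 51.0%, with 118, 149, 246 and 178 reads, and around KIF5B intron 24 they were 50.5%, with 108, 113, 132 and 99 reads. The G or C poor pair had few reads in J2 with vehicle and the other pair did not.

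Over 337 kinesin junctions with at least 20 spliced reads in all, the share of G or C was set beside the log2 change of spliced RPM. The points share their libraries and, within a gene, their transcripts, so the correlations are descriptions across junctions with no test. Spearman's rho with the drug effect in J2 RNA was -0.42, against -0.47 over 75604 junctions of all genes. With J2 against input it was 0.50 for vehicle, against 0.41 over all, and -0.27 for drug, against -0.18. With the drug effect in the input it was 0.26 in kinesins and -0.01 over all. Within the 16 genes with at least 10 such junctions, the rho with the drug effect in J2 RNA ran from -0.66 in KIF4A to 0.56 in KIF1C, below 0 in 10 genes and above it in 6. It was -0.55 in KIF23 and -0.17 in KIF5B, from which the pairs above were picked once their values were known. With J2 against input under vehicle it was 0.59 in KIF23 and 0.19 in KIF5B, above 0 in 9 of the 16.

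By classes of base composition set after the values were seen, 125 kinesin junctions were under 45% G or C. Of these, 116 (92.8%) were higher with drug in J2 RNA and 13 in the input, with median log2 changes of 1.22 and -1.08. Of 109 junctions from 45% to under 55%, 48 were higher in J2 RNA and 49 in the input, with medians of -0.17 and -0.10. Of 103 at 55% or more, 65 and 36 were higher, with medians of 0.40 and -0.69. Junctions of all genes gave medians of 1.18 and -0.99 under 45%, -0.33 and -0.22 between, and -0.45 and -0.77 above. Under 45%, 88.1% of them were higher with drug in J2 RNA and 17.1% in the input, so the 92.8% in kinesins was near the background. Their shares were 39.1% and 41.6% in the middle class, then 32.5% and 21.6% in the highest. The medians of kinesin and all junctions lay close together in the lowest class and had opposite signs in J2 RNA in the highest. The 103 kinesin junctions of the highest class came from 17 genes, so single genes weigh in its median. All 12 junctions of KIF18B lay there, with log2 changes of 1.31 to 2.16 in J2 RNA, as did all 18 of KIF7 (-2.04 to 1.05). The part that base composition or RNA fragmentation has in these changes was not tested.

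**Figure D5:**
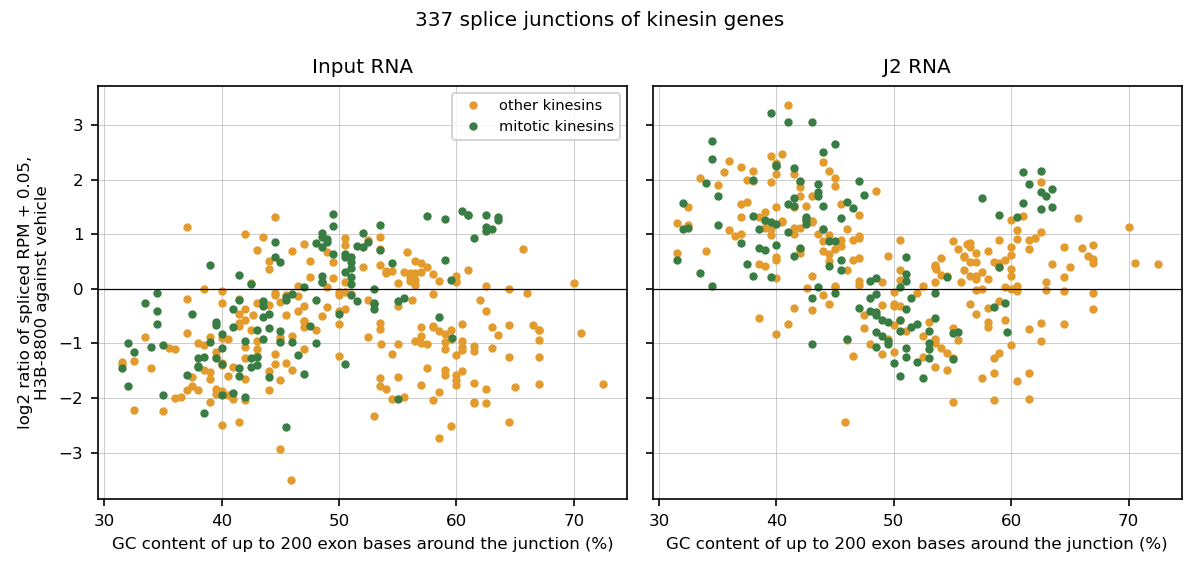
Log2 change of spliced RPM with drug at kinesin junctions against the percent of G or C in the flanking exon bases, for input and for J2 RNA, with mitotic kinesins in green; 0.05 RPM was added to both groups. In J2 RNA the junctions under 45% G or C lie mostly above 0, with a median of 1.22, and in the input mostly below it, with a median of -1.08.

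Proteins that work with kinesins were described from lists of names, by counts beside the shares of all genes given above. Of 16 kinesin partners, which include cargo adaptors, light chains and superfamily motors named otherwise, 12 fell in spliced reads with drug in the input and 1 rose, with a median of -1.59 (edgeR). In the ratio of intronic to spliced reads 13 rose and none fell, in the input and in J2 RNA (limma). Among the partners, KLC3 and KLC4 passed the filter only through vehicle libraries and KIAA1279 only through drug libraries. The counts and the median hold these genes, which had to differ, and were not repeated without them. The light chains KLC1 and KLC2, which bind cargo to KIF5 motors, went from 42.8 ± 0.61 to 7.71 ± 1.09 RPM and from 80.7 ± 1.43 to 15.2 ± 2.75 RPM (SD, n = 2), or by -2.47 and -2.41 on the log2 scale. KTN1, the kinesin receptor kinectin, went from 36.9 ± 1.12 to 5.81 ± 0.76 RPM (-2.67). TRAK1, which links KIF5 to mitochondria, rose from 15.4 ± 0.46 to 30.3 ± 1.41 RPM (0.98). CENPE, the kinetochore kinesin, fell by 2.06 on the log2 scale in the input and rose by 2.09 in J2 RNA, both called by edgeR.

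Of 18 spindle and midzone partners tested, 7 rose and 6 fell in spliced reads in the input, with a median of 0.06, and 12 rose and 3 fell in J2 RNA (edgeR). PLK1, a mitotic kinase that binds KIF20A at the midzone, rose from 30.3 ± 0.16 to 74.1 ± 2.38 RPM (1.29). RACGAP1, the partner of KIF23 in centralspindlin, rose from 6.40 ± 0.20 to 14.5 ± 2.49 RPM (1.18). ECT2, the RhoA activator that centralspindlin recruits, fell from 5.84 ± 0.28 to 0.67 ± 0.13 RPM (-3.11). Genes of one midzone pathway thus moved in opposite directions in the input.

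Of 9 tubulins, which apart from TUBG1 are subunits of the track, 4 rose and 3 fell in the input with a median of 0.02. In J2 RNA 1 rose and 7 fell (edgeR in both). TUBG1, which nucleates microtubules, fell from 71.3 ± 7.67 to 18.5 ± 1.67 RPM (-1.95), and TUBA4A rose from 7.97 ± 0.28 to 17.2 ± 1.56 RPM (1.11). Of 16 genes of dynein and dynactin, the motor that walks the other way, 4 rose and 6 fell in the input with a median of 0.07. Their ratio of intronic to spliced reads rose in 9 and fell in none, in the input and in J2 RNA (limma). DYNLT1, a dynein light chain, went from 1.65 ± 0.26 to 0.03 ± 0.02 RPM. Its log2 change of -5.60 is given without its test, as DYNLT1 passed the filter only through the vehicle inputs. The dynein and dynactin counts above hold this gene.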

How the data were processed

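RNA was measured in 8 libraries, 2 biological duplicates in each of 4 groups. Per the submitters' processing notes HISAT2 2.0.4 was used, and 2 builds, mm10 and hg38, are listed; the counting program and strand setting are not given in the sources used here. The files hold 3 values for each of 142224 introns, without a header. The first 2 are whole-number read counts deposited without normalization, and the third is a deposited RPKM, which equals the first count over intron length and a depth per library. Reading the first count as intronic and the excess of the second as spliced was inferred from the values. Of these introns, 18 lacked values and 142206 were used.

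Reads were summed over the introns of a gene, and the library size was the depth that the RPKM implies. Genes with at least 1 RPM spliced in at least 2 libraries were kept. Spliced and intronic reads were tested with edgeR 4.0.16 (quasi-likelihood), and log2 of intronic + 1 over spliced + 1 with limma 3.58.1, per gene and for introns with at least 10 reads in at least 6 libraries. All libraries entered 1 fit of 4 group means, in R 4.3.3, tested on simulated data. Benjamini-Hochberg adjustment ran over all genes or introns tested, and 0.05 was the threshold. With 2 against 2 libraries, the smallest exact permutation p for a single value is 0.333, so single values rest on the pooled spread. Alternatives were TMM, median-of-ratios scaling, DESeq2 1.42.0, other filters and pseudocounts, leaving out genes that passed through one side of a comparison (added after seeing the data), a replicate block and leaving out each library.

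The members and gene lists (mitotic kinesins, other kinesins, kinesin partners, spindle and midzone partners, tubulins, dynein and dynactin, and markers of mesenchymal, luminal and immune cells) were chosen with earlier results of these data known. Fully described are up to 6 members each way with the largest change in the input that passed and had 1 sign in all library pairs, and up to 3 each way for the other comparisons, KIF11, KIF20A, KIF2C and KIF5B, and up to 8 introns that rose, 5 that fell and 5 deeply read ones not called. KIF23, KIF18A, KIF3C and KIF27 introns and windows of junctions named beyond that were picked once their values were known. GENCODE 29 on GRCh38 gave intron numbers (648 of 656 kinesin introns matched) and sequences. Intron positions are those of the files and include the flanking exon base at each end.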

Additional observations from a re-analysis of the deposited data

Results flagged for a closer look

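The drug effect on spliced reads differed between J2 RNA and the input in 14 kinesins by the interaction term (edgeR, threshold 0.05), given here on the log2 scale as J2 RNA less input. The difference was 3.42 in KIF18A, 3.31 in KIF2A, 3.06 in KIF11, 2.99 in KIF5B, 2.63 in KIF14 and 2.13 in KIF15; the last pair passed the filter only through the vehicle inputs, which favours this direction. It was 1.73 in KIF7, 1.64 in KIF21A, 1.13 in KIF21B and 1.05 in KIF1B. KIF18B followed with 0.53 and KIF1C with 0.32, which under median-of-ratios scaling was -0.02. Lower in J2 RNA were KIF2C with -0.59 and KIF20A with -1.29. Groups of 2 libraries are too small to test a single library as an outlier.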

How the results depend on the processing

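Counts below are of kinesin genes or introns, higher then lower where a pair is given, and changes are log2. Each library was left out in turn, which leaves a group with 1 library whose spread is taken from the others. Of 800 values for named genes and introns so obtained, 732 kept direction and side of the threshold, 46 lost the call, 8 gained one and 14 reversed.

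For spliced reads the leave-outs gave 3 to 6 higher with drug in the input and 2 to 6 higher in J2 against input with drug. For intronic reads 1 to 2 fell in J2 RNA. For the ratio they gave 9 to 15 higher and 0 to 1 lower with drug in the input, 0 to 1 lower in J2 RNA, 0 to 2 higher in J2 against input with vehicle and 0 to 1 lower for the interaction. Of single introns, 1 to 3 fell in the input and 6 to 16 in J2 RNA. Ranges that crossed 0 were, for intronic reads, KIF20A 0.00 to 6.31 and KIF5B -1.05 to 0.94 in the input and KIF11 -3.60 to 1.79 in J2 RNA. For the ratio they were KIF20A -0.77 to 2.71 in the input, and KIF5B -0.58 to 0.33 and KIF11 -3.32 to 0.25 in J2 RNA. For introns of KIF1C in the input they were 14 (-0.26 to 1.34), 15 (-0.22 to 0.021) and 19 (-0.038 to 2.18). In J2 RNA they were 14 (-0.62 to 0.93), 17 (-1.24 to 0.38) and 18 (-0.92 to 0.66) of KIF1C and 8 of KIF2C (-0.21 to 1.11).

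TMM gave 2 higher in J2 against input with vehicle, 8 and 4 for intronic reads in the input, 6 and 2 for those in J2 RNA, with KIF5B at -0.97 in the input and KIF11 at -0.64 in J2 RNA. The median of ratios gave 9 lower for spliced reads in the input (KIF2C 0.12), 3 higher in J2 against input with vehicle, and for intronic reads 7 and 4 in the input (KIF5B -1.02), against 6 and 2 in J2 RNA (KIF11 -0.81, KIF5B -0.024). Applied to both reads it gave ratio calls of 6 and 1 in the input (KIF20A -0.76, KIF5B -0.40), with 4 and 6 in J2 RNA. DESeq2 called 3 higher for spliced reads in the input. A pseudocount of 0.5 left 1 ratio higher in J2 against input with vehicle, as did no filter, and moved KIF5B in J2 RNA to 0.0049. A filter also on intronic reads, by which fewer genes are tested, gave 6 and 7 higher for intronic reads in input and J2 RNA, 5 and 5 for the ratio, 0 higher in J2 against input with vehicle and 1 lower with drug. Introns free of other genes gave KIF4A -0.66 for intronic reads in the input and 1 lower ratio in J2 against input with drug. At 20 reads per intron, 24 introns rose in the input, and 18 rose and 6 fell in J2 RNA. After seeing the data, genes that passed the filter through one side of a comparison only were left out. Of the counts for spliced reads and the ratio this moved 2 by over 1.5 times, to 2 lower for spliced reads in J2 RNA and 1 higher ratio in J2 against input with vehicle, since fewer genes enter. Without a filter 97 rose and 4 fell in the input and 27 fell in J2 RNA. Except where an alternative tests fewer genes or introns, the cause was not tested.

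Libraries with the same replicate number did not deviate together (correlations -0.077 to 0.100), so the numbers do not pair them. With a replicate block, spliced reads in the input still gave 5 and 15, J2 against input with vehicle 16 lower, the ratio in J2 RNA 11 higher, and introns 44 and 3 in the input, with 30 and 11 in J2 RNA, all within 1.5 times of the counts reported. Low read numbers limit most single introns, as 325 of 476 were not tested.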

Other observations

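KIF17, a motor of cilia and dendrites, was outside the tests because only 1 library held at least 1 spliced RPM. That was the second J2 vehicle library, with 555 spliced reads or 9.74 RPM, against 43 reads in the first J2 vehicle library.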
